A study of Rattus norvegicus with 24 samples.

Results

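Expression in the livers of 12 rats that had eaten a diet with 5% or 20% protein for 1 week was compared across 17245 genes. These 12 animals, of 24 in the whole series, were taken by their titles: 6 labelled 5% protein 1wk (animals 49, 50, 54, 74, 75 and 76) and 6 labelled 20% protein 1wk (animals 51, 52, 53, 77, 78 and 79). Per the labels all were male Wistar rats, and the tissue was whole liver with 1 Affymetrix array per animal. No strain difference, transgene or other agent is given for either diet, and the animals' age is not given in the sources used here. The other 12 rats ate the same diets for 4 weeks and serve here as a second time point. They also enter the estimate of the spread and the choice of probe sets. Percentages and weeks were taken from the titles, although codes in the descriptions read 4 and 18 where the titles read 5 and 20, and although the series' design text mentions a period of 4 weeks alone. In whole tissue, fewer cells of a type and less RNA per cell cannot be told apart.

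The liver senses a shortage of protein mainly as a shortage of amino acids. A transfer RNA without its amino acid activates the kinase GCN2, which phosphorylates the initiation factor eIF2-alpha. Bulk translation then slows while the transcription factor ATF4 is made, and ATF4, paired with C/EBP proteins, binds composite elements in the promoters of genes for amino acid uptake and synthesis. The liver is also the main source of circulating insulin-like growth factor 1, whose output depends on growth hormone and on protein supply, and in rats the male pattern of growth hormone pulses keeps a set of hepatic P450 and steroid enzymes high.

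The composite element of ATF4 has the core TGATGNAA, where N is any base. The promoters of 5 genes that rose on 5% protein and hold this core before their start are shown. The amino acid response below includes such genes. These 5 were picked by smallest p among the largest rises and the ATF4 targets called higher. Of 24 genes of that choice with 1 promoter entry 6 held the core, 5 of them before the start. Each sequence is the 250 bases before the RefSeq start, read 5′ to 3′ on the gene's own strand, from assembly GRCr8, with the core in capitals (reversed and complemented where it lies on the opposite strand). The positions are chr12:11664238-11664487, plus strand for Slc7a1, chr3:161275534-161275783, minus strand for Trib3, chr10:106420813-106421062, minus strand for Pycr1, chr1:105221377-105221626, minus strand for Fgf21 and chr3:126795881-126796130, plus strand for Chac1.
Slc7a1: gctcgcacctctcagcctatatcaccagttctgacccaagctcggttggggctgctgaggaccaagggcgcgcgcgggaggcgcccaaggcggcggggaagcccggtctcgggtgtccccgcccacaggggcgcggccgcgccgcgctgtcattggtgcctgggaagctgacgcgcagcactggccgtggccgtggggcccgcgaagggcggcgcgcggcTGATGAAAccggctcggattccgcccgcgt
Trib3: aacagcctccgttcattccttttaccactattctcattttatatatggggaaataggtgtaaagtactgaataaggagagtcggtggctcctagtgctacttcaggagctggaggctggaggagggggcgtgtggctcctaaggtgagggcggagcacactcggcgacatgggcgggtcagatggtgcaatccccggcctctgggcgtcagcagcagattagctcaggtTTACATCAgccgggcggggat
Pycr1: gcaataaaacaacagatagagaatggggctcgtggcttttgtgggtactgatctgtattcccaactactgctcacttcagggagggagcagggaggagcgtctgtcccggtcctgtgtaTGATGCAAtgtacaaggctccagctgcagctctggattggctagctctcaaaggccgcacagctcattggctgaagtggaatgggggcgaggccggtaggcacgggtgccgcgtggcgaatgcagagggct
Fgf21: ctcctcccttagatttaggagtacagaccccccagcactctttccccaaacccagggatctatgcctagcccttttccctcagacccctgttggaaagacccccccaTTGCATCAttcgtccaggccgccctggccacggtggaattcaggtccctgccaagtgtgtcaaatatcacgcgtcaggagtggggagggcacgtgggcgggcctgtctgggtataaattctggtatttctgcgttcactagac
Chac1: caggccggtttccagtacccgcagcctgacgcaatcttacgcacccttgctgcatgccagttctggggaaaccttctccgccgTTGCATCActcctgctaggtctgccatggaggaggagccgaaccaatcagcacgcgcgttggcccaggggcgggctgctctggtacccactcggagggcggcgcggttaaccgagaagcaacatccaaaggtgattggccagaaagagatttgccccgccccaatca
The core lay 30 to 23 bases before the start in Slc7a1 and 21 to 14 bases before it in Trib3. In Pycr1 it lay 131 to 124, in Fgf21 143 to 136 and in Chac1 167 to 160 bases before the start. Searched on both strands over 250 bases before to 50 after the start, the core was in 400 of 13258 tested genes with 1 promoter entry (3.02%). It was in 11 of 250 genes higher on 5% protein (4.4%) and in 4 of 326 genes lower on it (1.23%). Among the 28 measured ATF4 targets with an entry 8 held it (28.57%), and among the 15 of these that were called higher 6 did (40%). A match of letters is not a measured binding site, and the list of ATF4 targets was itself drawn from knowledge of this element.

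Array medians of the 12 animals lay between 43.3 and 45.3 intensity units, and arrays of 1 group correlated at 0.984 to 0.995 over all 29214 probe sets. The titles hold an animal number and a well position. Each diet had 3 animals numbered 49 to 54 and 3 numbered 74 to 79, called here the first and the second run, and whether a run is a batch is not stated. Wells of the 5% animals were in plate rows C, E and G and those of the 20% animals in rows D and H, so plate row and diet cannot be told apart. Each number was taken as 1 animal. The fit pooled the spread between animals over all 24, so the p values do not rest on these 12 alone. On the first principal component of the 12 animals (26% of the variance) the 5% animals scored below all the 20% animals. The second component (22.9%) separated the 20% animals by run.

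**Figure D1:**
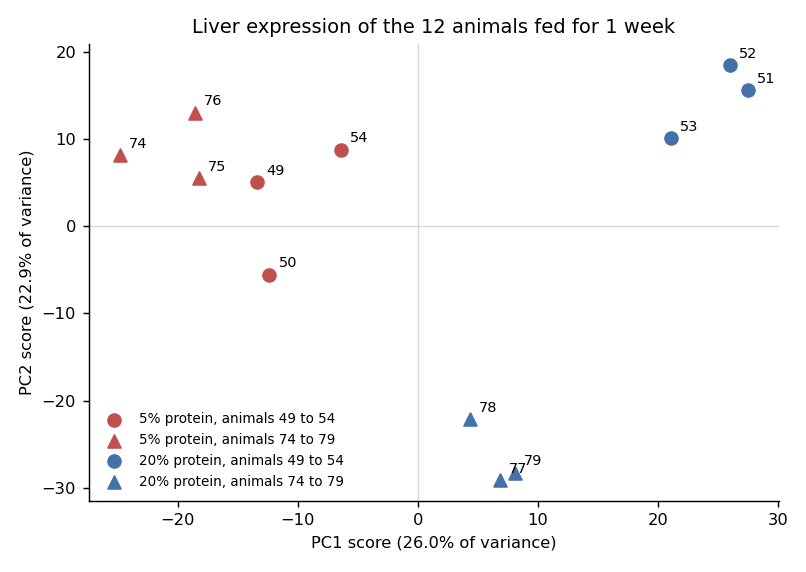
Scores of the 12 animals on the 2 leading principal components of log2 expression over 17245 genes, by diet (colour) and run of animal numbers (shape). The 5% animals lie to the left, and the 20% animals of the 2 runs lie far apart on the vertical axis.

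Animal 53, labelled male and fed 20% protein, went against the male label in several genes known to differ between the sexes of rats. A1bg, a secreted glycoprotein that female rat liver makes in quantity, had an intensity of 4652 in it against 40.3 to 62.7 in the other 20% animals, and Cux2, a female-biased transcription factor, had 339 against 40.9 to 59.2. Prlr, the prolactin receptor, had 954 against 196 to 329. The male-specific P450s Cyp2c11 and Cyp2c13 stood at 132 and 97.9 against 3877 to 5073 and 4023 to 7546, and Cyp2a2, another male P450, at 136 against 1210.4 to 1774. These genes were picked after their values were seen. The female P450 Cyp2c12 had 6250 in animal 53, against 3792 to 5729 in the other 20% animals and 4886.5 to 6432 on 5%. Of the 21 measured genes of the sex-biased list, animal 53 lay above the other 20% animals in 7, below them in 8 and within their range in 6, namely Mup5, Rup2, Stac3, Bcl6, Onecut1 and Oat. In Rup2 it had 396, against 44.3 to 3701 in the other 20% animals and 17.7 to 36.7 on 5%. No gene of the Y chromosome was measured by a probe set of 1 symbol, so sex was not tested. By more than 1 log2 unit, 18 genes of animal 53 lay below and 21 above all other 11 animals, against 0 to 5 and 0 to 11 genes in the others. Sex-biased genes called at 1 week are therefore given with and without this animal.

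On the log2 scale, 5% minus 20% protein, 321 genes were called higher on 5% protein (1.86% of the 17245) and 420 lower (2.44%), 4.3% in either direction, at a Benjamini-Hochberg adjusted p below 0.05 from limma. "Rose" and "fell" mean called higher and called lower on 5%. Differences are given ± the standard error of the fit, with n = 6 per diet, and intensities as lowest, median and highest animal. The median change was 0.51 among the rises and -0.53 among the falls. At least 1.5-fold changes were seen in 129 rises and 172 falls, and at least 4-fold changes in 9 and 17. The animals of the diets did not overlap in 441 genes (2.56%), of which 329 were called. After quantile normalization of the arrays the split was 411 higher and 320 lower, and after centring of array medians 374 and 299, so the share of higher calls moved from 43.3% to 56.2% and 55.6%. Of the 741 genes 136 were called within each run on its own. Of all genes tested, 7.57% were called within the first run and 8.49% within the second, and run counts of lists stand beside these shares. Without animal 53 there were 282 rises and 387 falls, and 574 genes were called in both fits in the same direction. Without animal 74, 213 genes rose and 205 fell, and without animal 76 277 fell. With plate row as a random block, 168 rose and 168 fell. In a fit of only the 12 animals of 1 week, 257 rose and 314 fell.

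Genes of the amino acid response, targets of ATF4, were among the rises. Of 36 measured ATF4 targets 17 rose, 0 fell and 19 were not called (47.2% called, against 4.3% of all genes). Their median difference was 0.49 against -0.0081 over all genes tested. The median was 0.54 in the first run (9 higher, 0 lower) and 0.86 in the second (18 higher, 0 lower), and 8 targets were called for the difference between runs. Without animal 53, 16 targets rose, but the median of the first run was 0.29 (7 higher, 1 lower) and 10 were called for the difference. With plate row as a random block 11 rose. Atf4 itself had intensities of 631, 775 and 1019 on 5% protein and 383, 601 and 629 on 20%. The diets did not overlap, and Atf4 rose by 0.51 ± 0.11 (adjusted p = 0.0078). Trib3, a pseudokinase that restrains AKT and ATF4, stood at 136, 644 and 1441 on 5% and 45.8, 72.4 and 84.7 on 20%. The lowest animal on 5% was above the highest on 20%, and Trib3 rose by 2.95 ± 0.41 (adjusted p = 0.00018), by 1.74 in the first run and 4.15 in the second (adjusted p of the difference = 0.00299). Slc7a1, the cationic amino acid transporter for arginine and lysine, had 67, 175 and 267 on 5% and 24.8, 32.9 and 59.9 on 20%. It rose by 2.23 ± 0.27 with no overlap (adjusted p = 2.58e-05). Slc7a11, the cystine/glutamate exchanger, had 53.5, 143 and 247 on 5% and 16.2, 18.8 and 69.6 on 20%. Animal 52 on 20% overlapped the lowest 5% animal, and Slc7a11 rose by 2.37 ± 0.37 (adjusted p = 0.0005), 1.11 in the first run and 3.62 in the second (adjusted p of the difference = 0.00528). Without animal 53 its first-run difference was 0.68 (adjusted p = 0.279) and the difference between runs 2.94 (adjusted p = 0.00136).

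Several enzymes that make nonessential amino acids rose with them. Aldh18a1, which starts proline synthesis from glutamate, had 237, 322 and 519.8 on 5% and 66.4, 97.2 and 167 on 20%. The diets were apart, and Aldh18a1 rose by 1.68 ± 0.20 (adjusted p = 3.04e-05). Pycr1, which completes proline, rose by 1.28 ± 0.23 (adjusted p = 0.00157), and its animals ran from 153 to 308 on 5% and from 54.5 to 165 on 20%. For serine, the first enzyme Phgdh stood at 358, 442 and 569.7 on 5% and 48.7, 84 and 537 on 20%. Among the 20% animals number 52 lay within the 5% range and number 51 just under it, and Phgdh rose by 1.78 ± 0.44 (adjusted p = 0.0202). Psat1, the next enzyme, differed by 1.32 ± 0.44 without being called (adjusted p = 0.0945), and was called without animal 52. Asns, asparagine synthetase, had 392, 658 and 872 on 5% and 65.4, 109 and 777 on 20%. It rose by 1.88 ± 0.48 (adjusted p = 0.0255), with animals 51 and 52 of the 20% diet within the 5% range, and the call was lost when animal 49, 53, 77, 78 or 79 alone was left out (adjusted p up to 0.0638). Mthfd2, the mitochondrial folate enzyme that supplies one-carbon units, rose by 1.09 ± 0.18 with no overlap (adjusted p = 0.000825). Pycr1, Phgdh and Asns differed by 0.47, 0.29 and 0.34 in the first run without animal 53 (adjusted p = 0.402, 0.575 and 0.534). Each was then called for the difference between runs (adjusted p = 0.0318, 0.00158 and 0.00219). With all animals that difference was not called in these genes (adjusted p = 0.076, 0.54 and 0.55). Aldh18a1 and Mthfd2 were still called in the first run without animal 53, at 1.16 and 1.065 (adjusted p = 0.0164 and 0.0104). Pycr1, Phgdh, Psat1, Cebpg, Vldlr, Chac1 and Ddit4 are named here after their values were seen.

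Regulators and stress outputs of the same pathway also rose. Nupr1, a small stress-induced chromatin protein, had 3450.0, 3602 and 3774 on 5% against 1080.0, 1754 and 2141 on 20%, and rose by 1.12 ± 0.12 (adjusted p = 5.03e-06). Ddit3, which encodes CHOP, stood at 175, 282 and 503 on 5% and 115, 136 and 173 on 20%. The diets just failed to meet, and Ddit3 rose by 0.97 ± 0.20 (adjusted p = 0.00582). Cebpg, a C/EBP partner of ATF4, rose by 0.57 ± 0.10 (adjusted p = 0.00209), and Vldlr, a lipoprotein receptor, by 1.00 ± 0.19 (adjusted p = 0.00353). Chac1, which breaks down glutathione, rose by 0.86 ± 0.21 (adjusted p = 0.0212), and the call was lost when animal 74 or 76 alone was left out (adjusted p up to 0.0549). Ddit4, an inhibitor of mTORC1, rose by 1.31 ± 0.35 (adjusted p = 0.0301), and the call was lost when animal 51, 54, 74, 77 or 79 alone was left out (adjusted p up to 0.066). Fgf21, the hepatokine released on low protein, spread widely, with 135, 933 and 2117 on 5% and 53.3, 159.7 and 323 on 20%. It rose by 2.21 ± 0.54 (adjusted p = 0.0187) with overlap between the diets, and the call was lost when animal 49 or 76 alone was left out (adjusted p up to 0.0526). Klb, its co-receptor, rose by 0.67 ± 0.14 with no overlap (adjusted p = 0.00684). Some textbook members were not called at 1 week: Atf3 differed by 0.38 ± 0.40 (adjusted p = 0.714), Gdf15 by 0.20 ± 0.32 (adjusted p = 0.828), and the 2 chains of the large neutral amino acid carrier, Slc7a5 and Slc3a2, by 0.45 ± 0.27 and 0.43 ± 0.24 (adjusted p = 0.41 and 0.373). Eif2ak4, which encodes GCN2, differed by -0.054 ± 0.14 (adjusted p = 0.911).

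**Figure D2:**
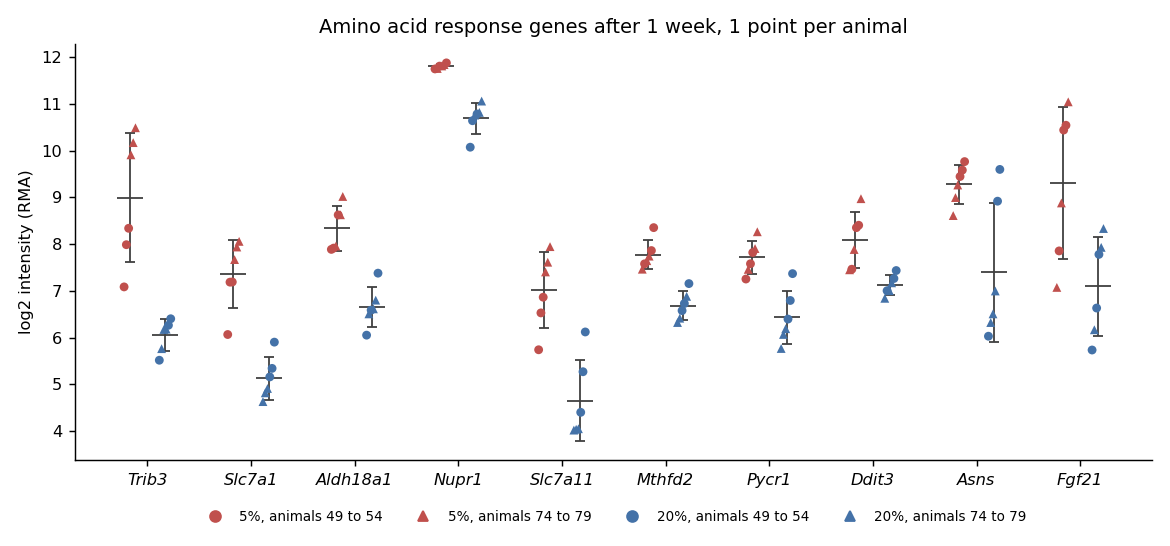
Log2 intensity of genes of the amino acid response in each of the 12 animals, by diet (colour) and run (shape), with the mean of each diet as a bar. Whiskers show the standard deviation of the 6 animals. For Trib3, Slc7a1 and Aldh18a1 the lowest 5% animal lies above the highest 20% animal, while Asns and Fgf21 overlap.

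Among genes of translation most ribosomal proteins rose (60.4% called, against 4.3% of all genes). Of initiation and elongation factors 16.2% were called and of aminoacyl-tRNA synthetases 23.8%. Of 48 cytosolic ribosomal proteins 29 rose and 0 fell, with a median of 0.31 in all animals, in the first run and in the second, and 27 rose without animal 53 and 15 without the 20% animals of the first run. Rpl12, of the large subunit, had 4036, 4622 and 5083 on 5% and 2979.5, 3238 and 3337 on 20%. The diets did not overlap, and Rpl12 rose by 0.52 ± 0.064 (adjusted p = 3.34e-05). Rplp0, of the stalk that binds elongation factors, rose by 0.38 ± 0.056 (adjusted p = 0.000308) and Rps19, of the small subunit, by 0.64 ± 0.10 (adjusted p = 0.000411), both with no overlap. The largest rises of the list, picked after their values were seen, were Rpl22 at 0.88 ± 0.17 and Rps12 at 0.85 ± 0.16 (adjusted p = 0.00298 and 0.00239). Ribosomal protein genes have many processed copies, and which copies the probes read was not tested. Of 37 initiation and elongation factors 6 rose and 0 fell (median 0.09), but 2 rose without animal 49, 74 or 79 and 0 with plate row as a random block. In a fit of only the 12 animals 2 rose. In the first run 0 were higher and 2 lower (median -0.051), in the second 11 were higher and 0 lower (median 0.22), and 6 were called for the difference between runs, or 5 without animal 53. The 6 include Eif3a, a scaffold of the initiation complex eIF3, at 0.35 ± 0.082 (adjusted p = 0.0138), and the elongation factor Eef1a1, at 11132 to 11991 on 5% and 9518 to 10535 on 20%. Eef1a1 rose by 0.21 ± 0.053 (adjusted p = 0.0254), and the call was lost when animal 49, 52, 74 or 79 alone was left out (adjusted p up to 0.0599).

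Of 21 aminoacyl-tRNA synthetases, which load amino acids onto transfer RNA, 5 rose and 0 fell (median 0.09), but the runs pulled apart. In the first run the median was -0.32, with 3 higher and 4 lower, and in the second 0.55, with 11 higher and 0 lower, and 11 members were called for the difference between runs. Without animal 53, 1 was higher and 5 lower in the first run (median -0.43). Those that rose over all 12 animals had the same sign in each run, as did all 741 genes called over all animals. Since a call over both runs selects for equal signs, this is no test of agreement between the runs. Eprs1, for glutamate and proline, had 2115, 2538 and 2691 on 5% and 1439, 1590.2 and 1927 on 20%, with no overlap. It rose by 0.60 ± 0.09 (adjusted p = 0.000308). Mars1, for methionine, rose by 0.51 ± 0.078 (adjusted p = 0.000407), Cars1, for cysteine, by 0.59 ± 0.11 (adjusted p = 0.00213) and Lars1, for leucine, by 0.49 ± 0.10 (adjusted p = 0.00401). Sars1, for serine, rose by 0.48 ± 0.12 (adjusted p = 0.0262), and the call was lost when animal 49, 74, 75, 76, 77 or 79 alone was left out (adjusted p up to 0.0684). It was called for the difference between runs, at 0.65, and without animal 53 its first-run value was 0.15 (adjusted p = 0.635). Gars1, for glycine, which is not among the 21, rose by 0.67 ± 0.11 with no overlap (adjusted p = 0.000835). Sars1 and Gars1 were named after their values were seen.

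Of 20 genes of the insulin-like growth factor axis 2 rose and 3 fell (25% called, against 4.3% of all genes, median -0.24). Igf1, the hormone, had 3945, 4498 and 5080.2 on 5% and 5419, 6254 and 6749 on 20%. No 5% animal reached the 20% range, and Igf1 changed by -0.47 ± 0.075 (adjusted p = 0.000664). Igfals, the acid-labile subunit that holds the hormone in a long-lived serum complex, had 136, 250.1 and 596 on 5% and 802, 1276 and 2038 on 20%. The diets were well apart, and Igfals changed by -2.35 ± 0.31 (adjusted p = 9.17e-05), with -1.97 in the first run and -2.72 in the second. Igfbp3, the main carrier in that complex, changed by -0.58 ± 0.16 with no overlap (adjusted p = 0.0351), but the call was lost when animal 49, 74, 75, 76, 77, 78 or 79 alone was left out (adjusted p up to 0.085). Igfbp1, a carrier that insulin represses, had 2757, 4987 and 6498 on 5% and 123, 576 and 2278 on 20%. It was the largest rise of all called genes without overlap, 3.2 ± 0.64 (adjusted p = 0.00437), a 9.18-fold change. Igfbp2, a carrier raised in fasting, had 764, 891 and 1499 on 5% and 128, 239 and 319 on 20%. Every 5% animal was above every 20% animal, and Igfbp2 rose by 2.11 ± 0.30 (adjusted p = 0.00023), 2.23 and 1.98 in the runs. Ghr, the growth hormone receptor, differed by -0.25 ± 0.10 and was not called (adjusted p = 0.16). Of 24 insulin signalling genes 1 was called (4.17%, against 4.3% of all genes). It was the receptor Insr, which rose by 0.32 ± 0.091 (adjusted p = 0.046). Its call was lost when animal 49, 50, 51, 52, 53, 74, 75, 76, 77 or 79 alone was left out (adjusted p up to 0.117).

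Genes that break down amino acids were called in 10.4% of members, against 4.3% of all genes tested. Of 48 genes of amino acid breakdown and the urea cycle 1 rose and 4 fell (median -0.11). Without animal 51, 74, 76, 77 or 79, or with plate row as a random block, 2 fell. In the first run 5 were higher and 2 lower (median 0.0052), in the second 1 was higher and 10 were lower (median -0.30). Without animal 53 the median was -0.20 over both runs and -0.086 in the first. Sds, serine dehydratase, which turns serine into pyruvate and follows protein intake, had 18.3, 24.3 and 30.9 on 5% and 108, 115 and 294 on 20%. The highest 5% animal was far below the lowest 20% animal, and Sds changed by -2.61 ± 0.53 (adjusted p = 0.00527). Oat, ornithine aminotransferase, stood at 202, 343 and 417 on 5% and 371, 1029 and 2335 on 20%, which overlap, and changed by -1.63 ± 0.36 (adjusted p = 0.00874), or -1.7 without animal 53 (adjusted p = 0.0117). Hal, the first enzyme of histidine breakdown, changed by -0.59 ± 0.17 (adjusted p = 0.0426), and the call was lost when animal 50, 51, 53, 54, 74, 76, 77 or 79 alone was left out (adjusted p up to 0.099). Pccb, of propionyl-CoA carboxylase, rose by 0.33 ± 0.085 (adjusted p = 0.0245), and the call was lost when animal 50, 51, 52, 74 or 76 alone was left out (adjusted p up to 0.0645). The urea cycle enzyme Cps1 differed by -0.30 ± 0.10 (adjusted p = 0.0808) and the tryptophan oxygenase Tdo2 by -0.62 ± 0.20 (adjusted p = 0.0841), and neither was called. Tat, tyrosine aminotransferase, was also not called, at 0.60 ± 0.24 (adjusted p = 0.167).

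Of 32 amino acid transporters 2 rose, Slc7a1 and Slc7a11 above, and 5 fell (median -0.13), or 3 without animal 74, 77 or 79. The share called was 21.9%, against 4.3% of all genes. Slc16a10, which carries aromatic amino acids, had 117, 138 and 241 on 5% and 263, 276 and 607 on 20%. The diets did not overlap, and Slc16a10 changed by -1.18 ± 0.19 (adjusted p = 0.000797). Slc43a2, a carrier of large neutral amino acids, changed by -0.40 ± 0.09 (adjusted p = 0.011). Slc38a5, a glutamine carrier, changed by -0.43 ± 0.087 (adjusted p = 0.00509), at intensities of only 10.2 to 12.8 on 5% and 13.2 to 18.1 on 20%. Of 25 genes of methionine, cysteine and taurine metabolism 2 rose and 1 fell (12% called), while 2 fell without animal 53 or 78. Cbs, which commits homocysteine to cysteine, had 309, 445 and 945 on 5% and 889, 1131 and 1238 on 20%. Animal 54 on 5% and animal 78 on 20% overlapped, and Cbs changed by -1.22 ± 0.20 (adjusted p = 0.000826). Mtr, methionine synthase, which returns homocysteine to methionine, had 315, 332 and 426 on 5% and 155, 225 and 253 on 20%. It rose by 0.69 ± 0.12 with no overlap (adjusted p = 0.00103).

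In glucose metabolism 1 of 29 genes rose and 0 fell (median 0.13), or 3.45% against 4.3% of all genes. That gene was Pck2, the mitochondrial form of the enzyme that makes phosphoenolpyruvate, at 204, 237 and 309 on 5% and 99.6, 113 and 200.2 on 20%. It rose by 0.93 ± 0.15 with no overlap (adjusted p = 0.000664), whereas the cytosolic form Pck1 differed by 0.14 ± 0.40 and was not called (adjusted p = 0.916). The difference between Pck1 and Pck2 was not tested. Slc2a4, the insulin-regulated glucose transporter of muscle and fat, rose from 22.1, 24.3 and 28.2 on 20% to 45, 94.6 and 138 on 5%. The change was 1.76 ± 0.26 with no overlap (adjusted p = 0.000284).

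No member of 23 genes of lipogenesis and desaturation or of 18 of cholesterol synthesis was called in limma's fit, with 4 of each list at an unadjusted p below 0.05, and the cholesterol list had a median of -0.31. Acaca, acetyl-CoA carboxylase, differed by 0.72 ± 0.29 (adjusted p = 0.172), and Scd, stearoyl-CoA desaturase, by 0.21 ± 0.35 (adjusted p = 0.836). Among 25 genes of mitochondrial fatty acid oxidation 1 rose (4%, against 4.3% of all genes), or 2 without animal 76, 77 or 78. It was Hadhb, a subunit of the trifunctional protein, at 1969.8, 2312 and 2659 on 5% and 1413, 1548 and 1828 on 20%. The animals of the diets did not overlap, and Hadhb rose by 0.55 ± 0.10 (adjusted p = 0.00239). The carnitine gate Cpt1a differed by -0.32 ± 0.38 (adjusted p = 0.744) and the receptor Ppara by -0.056 ± 0.21 (adjusted p = 0.943), and neither was called. Of 23 targets of PPAR-alpha 2 rose, Hadhb and Fgf21, and 0 fell (8.7% called). Of 27 lipid droplet and lipase genes 1 rose and 1 fell (7.41% called). Hsd17b13, a droplet enzyme, rose by 0.48 ± 0.13 (adjusted p = 0.0296), and the call was lost when animal 51, 52, 53, 74, 75 or 76 alone was left out (adjusted p up to 0.0845). Lipc, hepatic lipase, changed by -0.47 ± 0.12 (adjusted p = 0.0206), and the call was lost when animal 74 or 76 alone was left out (adjusted p up to 0.0644).

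Of 21 genes of bile acid synthesis and transport 1 rose and 3 fell (19% called, against 4.3% of all genes). Abcg5 and Abcg8 form the pump that sends cholesterol and plant sterols into bile. Abcg5 had 32.1, 36.3 and 228 on 5% and 71, 264 and 494 on 20%, with animal 54 alone among the 5% animals in the upper range. It changed by -2.23 ± 0.51 (adjusted p = 0.0113), and Abcg8 by -0.63 ± 0.15 (adjusted p = 0.0134). Cyp8b1, which makes cholic acid, changed by -1.55 ± 0.38 (adjusted p = 0.0196), with animal 53 the highest of the 20% animals, and without animal 76 the adjusted p was 0.0518. Abcc3, a basolateral pump of conjugates, rose by 0.98 ± 0.20 (adjusted p = 0.00608). Cyp7a1, the rate-limiting enzyme of bile acid synthesis, ranged from 358 to 3787 on 5% and from 64.3 to 6506 on 20% and was not called (adjusted p = 0.789).

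For peroxisomes and mitochondria, which the series' title names, the share of genes called at 1 week differed by list. Of peroxisomal enzymes 9.38% were called and of peroxins 6.25%, against 4.3% of all genes tested. For complex I the share was 0%, for complexes II to V 5% and for mitochondrial biogenesis and quality control 7.41%. Of 32 peroxisomal enzymes 0 rose and 3 fell, and of 16 peroxins, which import proteins into peroxisomes, 1 fell. Xdh, xanthine dehydrogenase, had 656, 706 and 1057 on 5% and 1095, 1369.5 and 1458 on 20%. It changed by -0.82 ± 0.15 with no overlap (adjusted p = 0.00168). Hao1, glycolate oxidase, changed by -0.44 ± 0.11 (adjusted p = 0.0188), and without animal 75 the adjusted p was 0.05 and no longer below the threshold. Hao2, a hydroxyacid oxidase higher in male rats, is given with the sex-biased genes. Pex3, needed for peroxisomal membrane assembly, changed by -0.54 ± 0.14 (adjusted p = 0.0282), and the call was lost when animal 51, 54, 74, 76, 77 or 79 alone was left out (adjusted p up to 0.0902). None of 33 subunits of complex I was called by limma over all 12 animals (5 at an unadjusted p below 0.05), nor more than 1 in each direction of 40 subunits of complexes II to V. Within runs they were called in opposite directions. In the first run 6 subunits of complex I and 8 of complexes II to V were higher (medians 0.14 and 0.24), and in the second 7 and 5 were lower (medians -0.24 and -0.22). The difference between runs was called for 8 and 9 subunits. Cox7a2l, which helps to join respiratory complexes, rose by 0.49 ± 0.13 (adjusted p = 0.0351), and the call was lost when animal 49, 50, 51, 52, 74 or 79 alone was left out (adjusted p up to 0.0986). Cox6c, a subunit of complex IV, changed by -0.32 ± 0.086 (adjusted p = 0.0313), and the call was lost when animal 54, 74, 76, 77, 78 or 79 alone was left out (adjusted p up to 0.099). Of 27 genes of mitochondrial biogenesis and quality control 2 rose (1 without animal 53, 74, 75 or 76), among them the matrix chaperone Hspa9, at 2872, 3412 and 3884 on 5% and 2171, 2499 and 2832 on 20%. Hspa9 rose by 0.43 ± 0.10 with no overlap (adjusted p = 0.0114).

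Sex-biased, growth-hormone-dependent genes had the lowest median of all lists. Of 21 members 0 rose and 10 fell (47.6% called, against 4.3% of all genes). The median was -1.63, with -1.46 in the first run and -1.11 in the second. Without animal 53 0 rose and 11 fell, with a median of -1.54, and the median of the first run was then -0.97 (8 lower, against 4 with it), above that of the second. With plate row as a random block 5 fell. Car3, a carbonic anhydrase abundant in male liver, had 415, 541 and 1788 on 5% and 2225, 7022 and 8570.4 on 20%. Animal 53 was the lowest on 20%, yet above all 5% animals, and Car3 changed by -3.0 ± 0.53 (adjusted p = 0.00152), or -3.29 without it (adjusted p = 0.000785). Cyp2c11, the main male-specific P450, had 127, 197 and 1762 on 5% and 132, 4437 and 5073 on 20%, the low value being animal 53. With that animal the change was -3.16 ± 0.74 (adjusted p = 0.0139). Without it the diets did not overlap and the change was -4.01 (adjusted p = 8.09e-05). In Cyp2c13, named after its values were seen, the change was -2.72 ± 0.75 (adjusted p = 0.0371) and -3.69 without animal 53 (adjusted p = 3.2e-05). With animal 53 kept, the call was lost when animal 50, 51, 52, 54, 74, 75, 77, 78 or 79 alone was left out (adjusted p up to 0.086).

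Enzymes of steroids and hydroxyacids in the same list also fell. Hao2 had 20.5, 23.9 and 164 on 5% and 24.9, 311 and 434 on 20%, where animal 53 was again the lowest. It changed by -2.79 ± 0.63 (adjusted p = 0.0107), or -3.42 without animal 53 and then with no overlap (adjusted p = 0.000316). Hsd3b5, a male-specific steroid reductase, changed by -2.63 ± 0.56 (adjusted p = 0.00708), or -3.22 without animal 53 (adjusted p = 0.000142). Rup2, a urinary protein gene, had 17.7, 25.6 and 36.7 on 5% and 44.3, 306 and 3701 on 20%. It was the largest fall of all called genes without overlap, -3.74 ± 0.92 (adjusted p = 0.0203), or -3.69 without animal 53 (adjusted p = 0.0351), but without animal 51 the adjusted p was 0.0504. Onecut1, the transcription factor HNF6, which responds to growth hormone, had 149.9, 282 and 751 on 5% and 631, 1092 and 1475 on 20%. It changed by -1.71 ± 0.37 (adjusted p = 0.00896), or -1.64 without animal 53 (adjusted p = 0.0194). Female-biased members fell too. Cyp2c7 changed by -2.36 ± 0.58 (adjusted p = 0.0203), or -2.11 without animal 53 (adjusted p = 0.0473), and the call was lost when animal 74 or 76 alone was left out (adjusted p up to 0.0635). Sult2a1, a steroid sulfotransferase, changed by -1.82 ± 0.50 (adjusted p = 0.0351), or -1.64 without animal 53 (adjusted p = 0.0766), and the call was lost when animal 49, 51, 52, 53, 74, 75, 76, 77 or 78 alone was left out (adjusted p up to 0.0799). The female P450 Cyp2c12 differed by 0.13 ± 0.25 and was not called (adjusted p = 0.869, or 0.797 without animal 53). A1bg and Cyp2a2, not called with animal 53 (adjusted p = 0.0945 and 0.345), were lower on 5% without it, by -1.14 and -1.54 (adjusted p = 0.0177 and 0.0201). Members of the Cyp2c family are close in sequence, and how far their probes read each other was not tested.

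**Figure D3:**
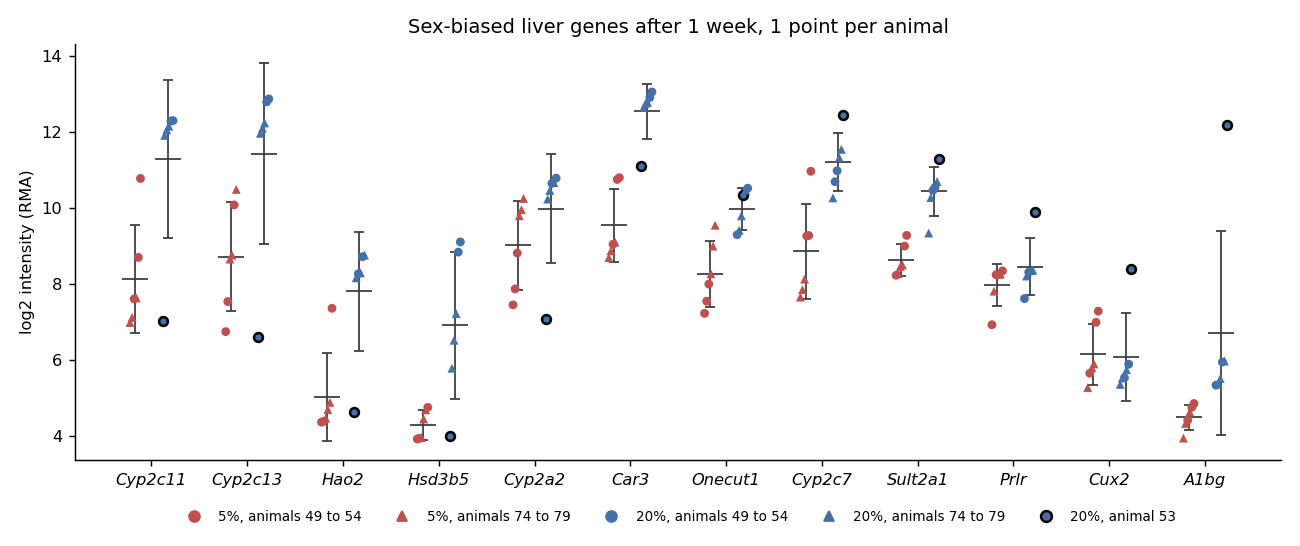
Log2 intensity of sex-biased genes in each of the 12 animals, by diet (colour) and run (shape), with the mean of each diet as a bar and animal 53 ringed. Whiskers show the standard deviation of the 6 animals. Animal 53 lies among the 5% animals for Cyp2c11, Hao2 and Hsd3b5, below them for Cyp2c13 and far above all other animals for A1bg.

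Other genes of drug and steroid handling fell as well. Of 37 xenobiotic P450s and transferases 0 rose and 6 fell (median -0.20), the same counts as without animal 53. The share called was 16.2%, against 4.3% of all genes. There were 2 falls without animal 74 or with plate row as a random block and 3 without animal 76 or 51. Cyp3a73, a P450 of the steroid-hydroxylating CYP3A family, had 47.7, 71.4 and 135 on 5% and 226, 300.0 and 945 on 20%. The diets did not overlap, and it changed by -2.44 ± 0.42 (adjusted p = 0.00133). Ugt2b, a glucuronosyltransferase, changed by -2.67 ± 0.76 (adjusted p = 0.0458), but the call was lost when animal 49, 50, 51, 52, 54, 74, 75, 76, 77 or 78 alone was left out (adjusted p up to 0.101). Akr1c1, an aldo-keto reductase, had 10.3, 14.8 and 19.5 on 5% and 28.8, 71.3 and 87 on 20%. All 5% animals were below all 20% animals, and Akr1c1 changed by -2.08 ± 0.27 (adjusted p = 7.62e-05). Esr1, the oestrogen receptor, changed by -0.94 ± 0.18 with no overlap (adjusted p = 0.0035). It is 1 of 4 nuclear receptors of 32 that fell, and 1 rose (2 without animal 77), with 15.6% called.

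Of 42 genes of glutathione metabolism and NRF2 targets 3 rose and 6 fell (21.4% called, against 4.3% of all genes). Gstm1, a glutathione transferase, had 4342, 4986 and 5639.7 on 5% and 7046, 7067 and 7401 on 20%. The 20% animals were tightly grouped, and Gstm1 changed by -0.52 ± 0.073 with no overlap (adjusted p = 0.00018). Gstm2 and Gstm7, its neighbours in the family, changed by -1.23 ± 0.27 and -1.06 ± 0.24 (adjusted p = 0.0101 and 0.0105), more in the second run (-1.93 and -1.87, against -0.52 and -0.26 in the first, adjusted p of the difference = 0.0134 and 0.00481). Without animal 53 the first-run value of Gstm7 was -0.56, and the difference between runs was still called (adjusted p = 0.00744). Sod1, the cytosolic superoxide dismutase, changed by -0.38 ± 0.066 with no overlap (adjusted p = 0.00152). Gpx1, a selenium-dependent peroxidase named after its values were seen, changed by -0.53 ± 0.14 (adjusted p = 0.0246), and the call was lost when animal 49, 74, 75, 76, 77 or 79 alone was left out (adjusted p up to 0.0684). Gsta3, an alpha-class transferase, went the other way and rose by 0.94 ± 0.19 (adjusted p = 0.00522).

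Of plasma protein genes 7.69% were called, of acute phase genes 4.35% and of coagulation and complement genes 6.25%, against 4.3% of all genes. Of 39 plasma protein genes 1 rose and 2 fell, or 4 fell without animal 50 and 1 without 74 or 76. Serpina7, thyroxine-binding globulin, had 1283, 1725 and 2489 on 5% and 173, 459.5 and 533 on 20%. The diets were far apart, and Serpina7 rose by 2.17 ± 0.32 (adjusted p = 0.000308). Afm, the vitamin E carrier afamin, had 1538, 2004 and 2648 on 5% and 3284, 3714 and 3938 on 20%. It changed by -0.87 ± 0.13 with no overlap (adjusted p = 0.000404). Alb, albumin, was not called, at -0.041 ± 0.056 (adjusted p = 0.785), nor was Ttr, transthyretin, at -0.088 ± 0.058 (adjusted p = 0.48). Of 23 acute phase genes 1 fell (2 without animal 53), Crp, by a change of -0.29 ± 0.068 (adjusted p = 0.0147), and of 32 coagulation and complement genes 2 fell. C6, of the membrane attack complex, changed by -0.86 ± 0.15 with no overlap (adjusted p = 0.00123). C8a, of the same complex, changed by -0.35 ± 0.094 (adjusted p = 0.0351), and the call was lost when animal 49, 50, 51, 53, 74, 76 or 79 alone was left out (adjusted p up to 0.0886).

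Cell division genes were lower on 5% protein. Of 50 members 0 rose and 14 fell (28% called, against 4.3% of all genes), with a median of -0.57. The median was -0.24 in the first run (1 higher, 5 lower) and -0.84 in the second (0 higher, 34 lower), and 6 members were called for the difference between runs. Without animal 53 the median of the first run was -0.11 (1 higher, 2 lower), 12 were called for the difference and 11 fell over both runs. Without other animals the falls were 5 without animal 74 or 79, 7 without 76, 8 without 77 and 9 without 49. With plate row as a random block 4 fell, and in a fit of only the 12 animals 9 fell. Erythroid markers, which cycling red cell precursors also carry, were lower too, with a summed intensity of 2400 to 9616 on 5% and 8115 to 16851 on 20%, and their part in the cell division list was not tested. Mcm4, of the replicative helicase, had 146, 170.3 and 207 on 5% and 229, 309 and 457 on 20%. The diets did not overlap, and Mcm4 changed by -0.85 ± 0.19 (adjusted p = 0.00953). Cdc45 and Cdc6, which load and fire that helicase, changed by -0.67 ± 0.13 and -0.58 ± 0.13 with no overlap (adjusted p = 0.00392 and 0.0108), with 5% animals at 25.9 to 35 and 23.9 to 34 and 20% animals at 36.1 to 59 and 35.8 to 54.9. Aurka, a mitotic kinase, changed by -0.53 ± 0.12 (adjusted p = 0.0139). Rrm2, which makes deoxynucleotides and was named after its values were seen, had 37.2, 51.7 and 78.8 on 5% and 73.3, 177 and 570.5 on 20%, and changed by -1.71 ± 0.41 (adjusted p = 0.0157). Mki67, a marker of cycling cells, differed by -0.83 ± 0.33 and was not called (adjusted p = 0.172). Of 28 growth arrest and p53 genes 3 rose and 0 fell (10.7% called). Cdkn1b, the cyclin-dependent kinase inhibitor p27, rose by 0.51 ± 0.11 (adjusted p = 0.00823), while Cdkn1a, p21, was not called, at 1.24 ± 0.52 (adjusted p = 0.198).

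Of 9 hepatocyte markers, 12 of Kupffer cells and macrophages, 8 of sinusoidal endothelium, 7 of cholangiocytes, 10 of neutrophils and 11 of T and NK cells, none was called in limma's fit, with 2, 2, 0, 0, 0 and 2 at an unadjusted p below 0.05. Of 12 periportal markers 1 rose (0 without animal 51, 52, 53, 74, 75 or 76) and 3 fell (2 without animal 53), and of 11 pericentral markers 2 fell. Of 12 stellate cell markers 1 fell (8.33%), Rgs5, which also marks pericytes, by -0.81 ± 0.17 (adjusted p = 0.00708). Erythroid markers fell in 3 of 8 (37.5%, median -1.20), in 0 without animal 49, 50, 74, 76, 77 or 79 and in 6 without 54. In a fit of only the 12 animals 5 of them fell. Ahsp, which stabilises alpha globin, changed by -1.41 ± 0.39 (adjusted p = 0.0365), and the call was lost when animal 49, 50, 74, 76, 77 or 79 alone was left out (adjusted p up to 0.0922). The erythrocyte anion exchanger Slc4a1 changed by -1.41 ± 0.39 (adjusted p = 0.0411), and the call was lost when animal 49, 50, 53, 74, 76, 77, 78 or 79 alone was left out (adjusted p up to 0.101). Epb42, of the red cell membrane skeleton, changed by -0.55 ± 0.15 (adjusted p = 0.0345), and the call was lost when animal 49, 50, 52, 53, 74, 75, 76, 77 or 79 alone was left out (adjusted p up to 0.0811). Of 6 B cell markers 1 fell (16.7%). That marker, Jchain, of secreted antibodies, changed by -0.92 ± 0.26 (adjusted p = 0.0458), and the call was lost when animal 49, 50, 51, 52, 53, 54, 75, 76, 77 or 79 alone was left out (adjusted p up to 0.101). Of 32 proteasome genes 2 fell (6.25%, against 4.3% of all genes). There were 6 falls without animal 78, 1 without animal 52, 53, 74 or 75 and 0 with plate row as a random block. By run 8 were lower in the first and 0 in the second. Of 31 genes of autophagy and lysosomes 1 rose and 1 fell (6.45% called), or 3 fell without animal 50 and 2 without 78. Of 27 interferon response genes 1 fell (3.7%), and of 32 collagen and matrix genes none was called by limma (3 at an unadjusted p below 0.05). Of 7 fetal liver genes none was called by limma (1 at an unadjusted p below 0.05), and Afp differed by -1.5 ± 0.54 (adjusted p = 0.123).

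Several of the largest changes were in genes of other roles. Unc5b, a netrin receptor that p53 induces, had 85.9, 386 and 862 on 5% and 29.6, 43.4 and 53.7 on 20%. It rose by 2.76 ± 0.41 with no overlap (adjusted p = 0.000337), by 1.14 in the first run and 4.37 in the second (adjusted p of the difference = 1.19e-05). Ankrd33b, an ankyrin repeat protein, rose by 2.06 ± 0.24 (adjusted p = 1.87e-05), Gucy2c, the guanylin receptor best known from gut, by 1.6 ± 0.31 (adjusted p = 0.00299), and Cacna1a, a calcium channel subunit of neurons, by 1.6 ± 0.25 (adjusted p = 0.000457). Each of these 3 separated the diets without overlap. Coro6, of the coronin family, had 156, 194 and 290.0 on 5% and 58.7, 63.4 and 92.6 on 20%, and rose by 1.56 ± 0.18 (adjusted p = 1.65e-05). Adgrg2, an adhesion receptor, rose by 1.38 ± 0.24 (adjusted p = 0.00123), Arhgef2, an activator of RhoA, by 1.36 ± 0.24 (adjusted p = 0.0018), and Slc20a1, a phosphate transporter, by 1.34 ± 0.21 (adjusted p = 0.0006). Some of these were dim. In the 20% animals other than animal 53, Cacna1a stood at 15.65 to 19.2, Adgrg2 at 18.9 to 27.7 and Gucy2c at 26.3 to 38.3. Array medians lay between 43.3 and 45.3. The smallest adjusted p of all genes belonged to Pcsk6, a proprotein convertase, named for that after its values were seen. It had 1123, 1307 and 1378 on 5% and 495, 547 and 626 on 20%, and rose by 1.21 ± 0.10 (adjusted p = 1.07e-07). Itga7, a laminin receptor, and Fgfr3, a fibroblast growth factor receptor, were named in the same way and rose by 1.31 ± 0.12 and 0.80 ± 0.076 (adjusted p = 8.02e-07 and 9.67e-07).

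Among the falls, Nrep, a protein first described in regenerating neurons, had 212, 457 and 751 on 5% and 1109.5, 2359 and 2625 on 20%. The groups did not meet, and Nrep changed by -2.29 ± 0.26 (adjusted p = 1.35e-05). Tmem144, a membrane protein, had 26.8, 30.3 and 50.7 on 5% and 97.2, 111 and 119.9 on 20%. Both groups were narrow, and the change was -1.7 ± 0.17 (adjusted p = 3.01e-06). Gfra1, a co-receptor for GDNF, changed by -1.42 ± 0.22 (adjusted p = 0.000407), and Cers6, which makes ceramides with shorter acyl chains, by -1.35 ± 0.18 (adjusted p = 0.000128), each with no overlap. Alox15, a lipoxygenase, had 64.3, 248 and 458 on 5% and 469, 914 and 2709 on 20%. It changed by -2.32 ± 0.57 (adjusted p = 0.0204), and without animal 79 the adjusted p was 0.0558. Fkbp5, a glucocorticoid-induced co-chaperone, was the 1 gene called of 21 in the clock list (4.76%, against 4.3% of all genes). It rose by 0.90 ± 0.16 with no overlap (adjusted p = 0.00168).

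The diet effect was not the same in the 2 runs for every gene. Within the first run 1306 genes were called (7.57%) and within the second 1464 (8.49%), and the difference between these effects was called for 1258 genes (7.29%). Between runs, 1868 genes differed in the 20% animals (10.8%, 742 higher and 1126 lower in the second run), against 59 higher and 76 lower in the 5% animals. Of the 741 genes called over both runs, 52 were called for the difference. Without animal 53 the difference was called for 1509 genes, 1126 of them in both fits, and without animal 76 for 700, without 50 for 706, without 52 for 780 and without 51 for 810. Heat shock genes showed it in most members. Of 16 heat shock genes 12 were lower in the first run and 1 was higher in the second (medians -0.79 and 0.35), and 13 were called for the difference. Bag3, a co-chaperone induced by misfolded protein, differed by -1.82 in the first run and 0.25 in the second, a difference of 2.07 ± 0.27 (adjusted p = 0.000256). In the 20% animals it ranged from 195 to 952, and in the 5% animals from 213 to 289.6. Hsp90aa1 and Hsph1, cytosolic chaperones named after their values were seen, differed between runs by 1.85 ± 0.31 and 2.25 ± 0.41 (adjusted p = 0.00147 and 0.00249).

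Chaperones of the endoplasmic reticulum were also split by run. Of 32 genes of the unfolded protein response 2 were higher and 12 lower in the first run (median -0.22), and 12 were higher and 0 lower in the second (median 0.20). Over all animals 2 rose and 1 fell (9.38% called, against 4.3% of all genes), or 1 rose without animal 51, 53, 74, 75, 76 or 79. Without animal 53 the first-run median was -0.35 (0 higher, 13 lower). Derl3, of the degradation channel, had 45.5, 53.2 and 55.3 on 5% and 24.6, 78.5 and 1534 on 20%, so its spread lay in the 20% animals. Its diet effect was -3.45 in the first run and 0.73 in the second (difference 4.18 ± 0.76, adjusted p = 0.00245). Creld2 and Hyou1, both chaperones of that compartment, changed sign between runs, from -1.79 and -1.01 to 0.86 and 0.90 (adjusted p of the difference = 0.000102 and 0.0012). Hspa5, which encodes BiP, went from -0.59 to 0.40 (adjusted p = 0.00109). Hyou1, Hspa5 and Cry1 were named after their values were seen. Ern1, the sensor IRE1, had 615, 825 and 968 on 5% and 383, 442 and 588 on 20%, and rose by 0.77 ± 0.11 over both runs (adjusted p = 0.000308), with 0.46 in the first and 1.08 in the second. Without animal 53 its first-run value was 0.28 (adjusted p = 0.208), and the difference between runs was then called, at 0.79 (adjusted p = 0.00742). Its target Xbp1 changed by -0.58 ± 0.15 (adjusted p = 0.0244), and the call was lost when animal 51, 52, 54, 74 or 79 alone was left out (adjusted p up to 0.0724).

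Other genes with a difference between runs had varied roles. Cyp7a1 differed by -2.39 in the first run and 3.82 in the second, a difference of 6.21 ± 1.17 (adjusted p = 0.00299). Per2 and Cry1, repressors of the circadian clock, had run differences of 2.53 ± 0.70 and 2.43 ± 0.46 (adjusted p = 0.0305 and 0.00302). Ccng2, an atypical cyclin, went from 2.15 to -1.1 (adjusted p of the difference = 0.000102). Ppargc1a, a coactivator of mitochondrial genes, went from 1.54 to -0.24 (adjusted p = 0.0134). Pnpla5, a triglyceride lipase, went from 0.32 to -3.11 (adjusted p = 4.26e-06), with 14.7 to 20.2 in all 5% animals and 14.5 to 242 on 20%. Over both runs Pnpla5 was not called (adjusted p = 0.102), though it was without animal 51, 52 or 53. No cytosolic ribosomal protein was called for a difference between runs. With all animals, neither was any member of the insulin-like growth factor, sex-biased, xenobiotic, PPAR-alpha or interferon lists. Without animal 53, 2 sex-biased members were called for a positive and 1 for a negative difference between runs, and 1 xenobiotic member for a positive one. In the insulin-like growth factor, PPAR-alpha and interferon lists there was still none.

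**Figure D4:**
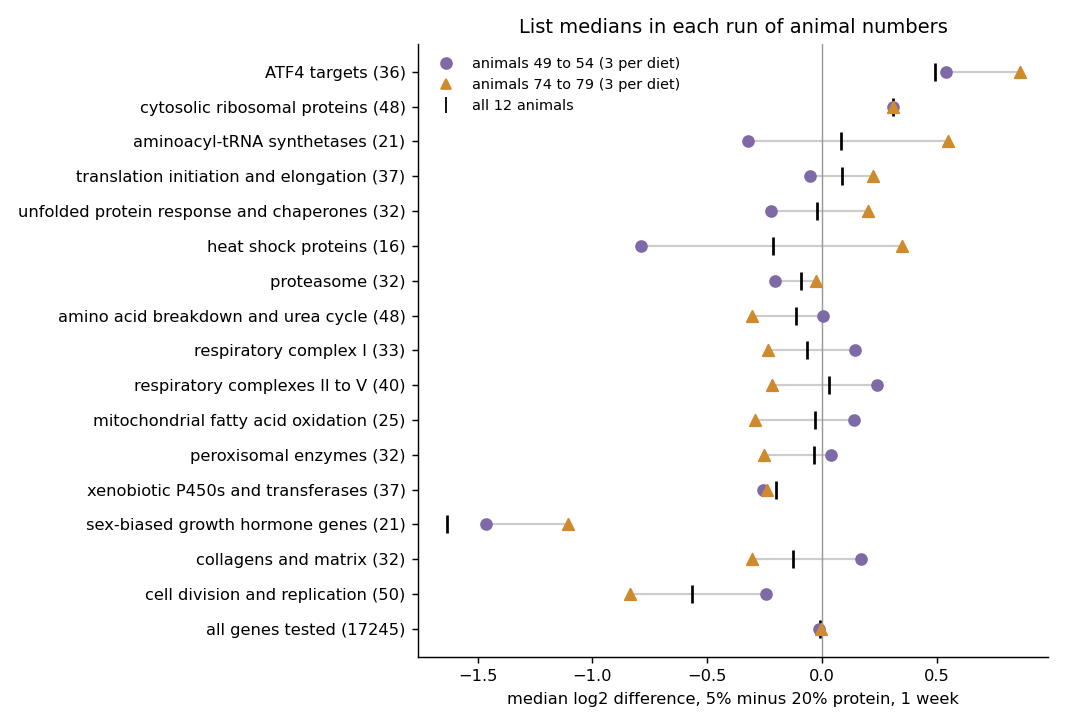
Median log2 difference (5% minus 20% protein) of each gene list in the first run, the second run and all 12 animals, with the number of measured members in brackets. All animals are included, animal 53 too. The ribosomal proteins stand at 0.31 in both runs, while heat shock proteins, tRNA synthetases and respiratory complexes lie on opposite sides of 0.

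At 4 weeks, in other animals, 4455 genes were called for diet (25.8%). Of the 741 genes called at 1 week 512 were called the same way (240 higher, 272 lower), 3 the opposite way and 226 not at all. Diet and run were tied at 4 weeks: by animal number, 5 of the 6 5% animals were in the earlier of the 2 runs of that time and 4 of the 6 20% animals in the later. With run as a covariate, a setting added after the data were seen for this count, 3681 genes were called at 4 weeks, 3289 of them in both fits in the same direction. The effects at 1 and 4 weeks differed in 991 genes (5.75%), of which 112 were among the 741: 77 went further at 4 weeks, and 35 were smaller or opposed. With run as a covariate the effects differed in 486 genes, and 413 of the 991 and 68 of the 112 were called in both fits. Of the 36 ATF4 targets 8 had a larger effect at 4 weeks, 0 a smaller one and 28 were not called for the difference, and with run as a covariate 5 and 0 were called. Atf4, Nupr1, Slc7a11, Asns, Ddit3 and Fgf21 were not called for it (adjusted p = 0.375, 0.645, 0.277, 0.188, 0.465 and 0.283). Trib3 went from 2.95 to 4.9 (difference 1.96 ± 0.58, adjusted p = 0.0482) and Slc7a1 from 2.23 to 3.58 (adjusted p = 0.0349, or 0.0516 with run as a covariate). Atf3, Gdf15 and Slc7a5, not called at 1 week, stood at 2.28, 1.86 and 2.3 at 4 weeks (adjusted p of the difference = 0.0484, 0.0343 and 0.00665, or 0.0493, 0.0759 and 0.0298 with run as a covariate). Igf1, Igfals and Igfbp2 were not called for a difference between times (adjusted p = 0.22, 0.435 and 0.192), with 4 week effects of -0.70, -2.98 and 3.07.

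Genes that went further at 4 weeks also included those of detoxification and signalling. Gsta3 went from 0.94 at 1 week to 4.59 at 4 weeks (adjusted p = 6.7e-09), Abcc3 from 0.98 to 3.5 (adjusted p = 1.84e-05) and Gucy2c from 1.6 to 4.26 (adjusted p = 0.00122). Unc5b went from 2.76 to 5.0 (adjusted p = 0.0269), and Enc1, a cytoskeletal adaptor, from 1.22 to 3.41 (adjusted p = 0.00122). Among the falls Akr1c1 went from -2.08 to -4.98 (adjusted p = 0.000118). Stac3, an adaptor known from muscle that is on the sex-biased list, and Cyp2c12 were not called at 1 week (-0.49 and 0.13) and stood at -7.02 and 2.96 at 4 weeks, with 1 week values of -0.55 and 0.19 without animal 53 (adjusted p of the difference with it = 1.89e-10 and 8.03e-05).

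Other changes were larger at 1 week than at 4. Slc2a4 went from 1.76 to 0.23 (difference -1.53 ± 0.36, adjusted p = 0.0163). Lrtm2, a leucine-rich repeat membrane protein, went from 1.61 to -1.68 and so changed sign (adjusted p = 0.00109). Its 1 week intensities were 119, 141 and 204 on 5% and 25, 45.5 and 124 on 20%, with some overlap. Fyb2, an adaptor protein, went from 0.89 to -0.49 (adjusted p = 0.0091) and Slc5a10, a sugar transporter of the SGLT family, from 1.14 to -0.10 (adjusted p = 0.00505). Dusp5, a phosphatase of ERK kinases, went from -0.83 to 0.39 (adjusted p = 0.0137). Tubb5, a beta-tubulin, went from -0.65 to 0.54 (adjusted p = 0.00535), and at 1 week (adjusted p = 0.0255) the call was lost when animal 49, 52, 54, 74 or 79 alone was left out (adjusted p up to 0.0606). The runs at 4 weeks hold other animals, so time and run cannot be told apart.

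**Figure D5:**
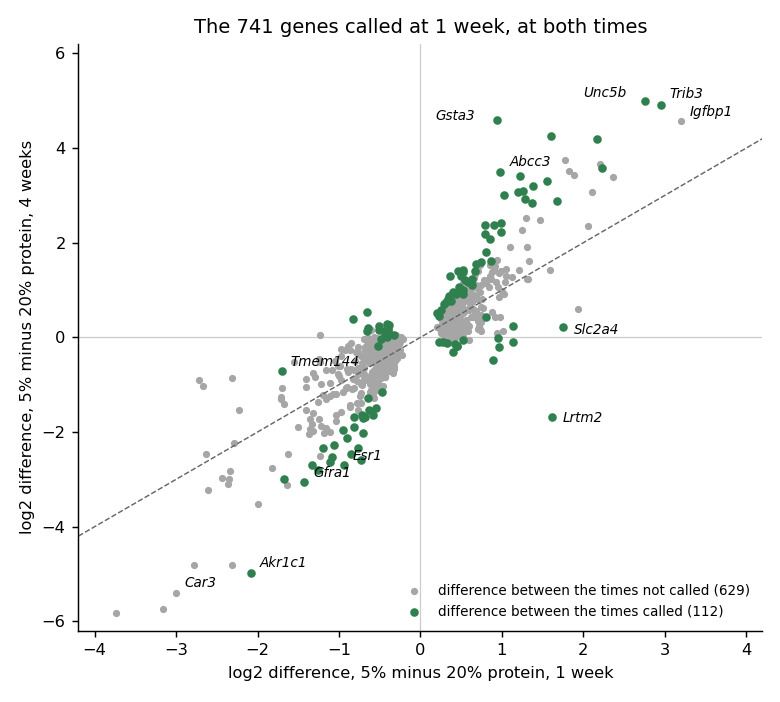
Log2 difference (5% minus 20% protein) of the 741 genes called at 1 week, plotted for 1 week (horizontal) and 4 weeks (vertical), with genes whose effects differed between times in colour and the line of equal effects dashed. Most points lie in the upper right and lower left, and Lrtm2 lies at 1.61 on the horizontal and -1.68 on the vertical axis.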

How the data were processed

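Liver RNA was labelled as cDNA without ribosomal RNA reduction, per the labels. The authors deposited intensities after RMA (background correction, quantile normalization, summary over probes) on the unlogged scale, per the submitters' processing notes, which give no version. RMA values hold no detection call, and the number of arrays limits the precision. Of 29214 probe sets 18644 paired with 1 gene symbol, and for the 879 genes with several the brightest was kept, which left 17245 genes. The log2 intensities of all 24 arrays were fitted with 4 group means in limma 3.58.1 (lmFit, eBayes) under R 4.3.3 with data.table (version 1.17.8), with 20 residual degrees of freedom, and within runs with a mean for each group and run. The threshold was an adjusted p of 0.05 (Benjamini-Hochberg over all genes, two-sided), after the fit was tested on simulated data. Of 1415 list entries 1231 were measured, and of 56 preset genes 49.

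The members and lists were chosen with earlier results of these data known. Named genes were the preset ones, the 15 largest rises and falls without overlap, up to 4 called members a list and direction by p (or the member with the smallest p), and the 6 largest run and time differences each way, less some not printed; others are marked as chosen after their values were seen. Promoters are RefSeq's of GRCr8, and 3251 genes with several entries were left out. Alternatives covered scaling, filtering, probe set choice, model, batch terms and each animal or run left out. No column of the deposited values belonged to other samples.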

Additional observations from a re-analysis of the deposited data

Results flagged for a closer look

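In 28 of 318 groups of 6 animals (each gene named above, on each diet) the highest or lowest animal stood apart from the rest by Dixon's criterion at 95%, which chance meets in about 1 group of 20. The groups hold genes named because animal 53 stood apart in them, and 12 of the 28 are that animal's, so the count is no test against that rate. The values are log2 intensities. On 20% protein, animal 53 was the lowest in Rpl12 (11.54), Hao1 (11.39), Hao2 (4.64), Scd (11.08), Cyp2c11 (7.04), Car3 (11.12), Cyp2c13 (6.61) and Cyp2a2 (7.08) and the highest in Cyp8b1 (11.78), A1bg (12.18), Cux2 (8.4) and Prlr (9.9). On 20% protein, animal 77 was the lowest in Atf4 (8.58) and Slc5a10 (4.25) and the highest in Stac3 (6.32). On 20% protein, animal 78 was the lowest in Cbs (9.8) and Esr1 (7.28). On 5% protein, animal 49 was the highest in Lars1 (9.7) and Hao2 (7.36). On 5% protein, animal 50 was the lowest in Jchain (4.22) and the highest in Cyp2c12 (12.65). On 5% protein, animal 54 was the lowest in Acaca (11.09) and the highest in Mtr (8.73), Abcg5 (7.83), Xdh (10.05) and Per2 (8.03). On 5% protein, animal 76 was the lowest in Pck1 (11.09) and the highest in Atf3 (7.76).

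For 30 of the named genes limma called a difference between the diet effects of the runs (log2, animals 74 to 79 minus animals 49 to 54). It was positive in Trib3 (2.41), Slc7a1 (1.76), Slc7a11 (2.51), Slc7a5 (1.47), Slc3a2 (1.33), Sars1 (0.65), Tat (1.64), Cyp7a1 (6.21), Unc5b (3.23), Ankrd33b (1.36), Cacna1a (1.4), Arhgef2 (1.3), Itga7 (0.76), Bag3 (2.07), Hsp90aa1 (1.85), Hsph1 (2.25), Hspa5 (0.99), Derl3 (4.18), Creld2 (2.65), Hyou1 (1.9), Cry1 (2.43) and Per2 (2.53). It was negative in Tdo2 (-1.09), Gstm2 (-1.41), Gstm7 (-1.61), Afm (-0.72), Cdkn1b (-0.59), Ccng2 (-3.25), Ppargc1a (-1.78) and Pnpla5 (-3.43).

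For 42 of the named genes limma called a difference between the diet effects at 4 weeks and at 1 week (log2, 4 weeks minus 1 week), and for 33 of them in the same direction with run as a covariate as well. The amount was positive in Trib3 (1.96), Slc7a1 (1.36), Aldh18a1 (1.2), Pycr1 (1.64), Vldlr (1.42), Atf3 (1.9), Gdf15 (1.66), Slc7a5 (1.85), Rpl12 (0.39), Rplp0 (0.40), Rps19 (0.46), Abcc3 (2.52), Hadhb (0.66), Hspa9 (0.49), Cyp2c12 (2.84), Gstm1 (0.35), Gsta3 (3.64), Serpina7 (2.03), Unc5b (2.24), Gucy2c (2.66), Coro6 (1.76), Adgrg2 (1.81), Arhgef2 (1.47), Tmem144 (0.99), Enc1 (2.19), Dusp5 (1.22) and Tubb5 (1.19). It was below 0 in Hal (-1.05), Tdo2 (-0.99), Slc2a4 (-1.53), Xdh (-1.07), Lipc (-0.69), Stac3 (-6.52), Akr1c1 (-2.89), Esr1 (-1.76), Gstm7 (-1.2), C6 (-1.6), Gfra1 (-1.64), Fgfr3 (-0.38), Lrtm2 (-3.29), Fyb2 (-1.37) and Slc5a10 (-1.24).

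Among the 9608 probe sets without a gene symbol, which no comparison above uses, 256 were called higher and 43 lower on 5% protein at 1 week when every probe set was tested with limma. The annotation used here does not name them, and their identity was not tested.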

How the results depend on the processing

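No paired analysis was possible because each animal number occurs in a single group. Of 159 genes named above 120 were called, 63 of them under every alternative other than a single run, and 89 without any 1 of the 12 animals. Leaving out 1 animal gave 213 to 354 rises, 205 to 425 falls, 485 to 711 genes without overlap, 700 to 1509 genes with a difference between runs and 667 to 1145 with a difference between times (667 without animal 52). With plate row as a random block (correlation 0.1455) 168 genes rose and 168 fell, and 35 of the 120 named calls were lost; since rows follow diet, the cause was not tested. Testing every probe set gave 793 rises and 803 without overlap, over more features. A fit of only the 12 animals of 1 week gave 257 rises and 314 falls, and 18 of the 120 named calls were lost. Animals 49 to 54 alone gave 494 rises, 812 falls and 4262 without overlap, and animals 74 to 79 alone 696, 768 and 4929, from 3 animals a diet. Without the 20% animals 77 to 79 there were 503 rises, 733 falls and 2224 without overlap, and without the 20% animals 51 to 53 1976 without overlap; the cause was not tested. The diet effect at 4 weeks was called for 4455 genes, or 3681 with run as a covariate, a setting chosen after the data were seen. The difference between times was called for 1540 genes with array weights and 486 with run as a covariate; the cause was not tested. In 4 genes not called over all animals the sign turned and the gene was then called. Turns of sign without a call were not counted. In animals 74 to 79 alone Hspa5 stood at 0.40, Creld2 at 0.86, Hyou1 at 0.90 and Ccng2 at -1.10, and without the 20% animals 51 to 53 Creld2 at 0.87 and Hyou1 at 0.82. Quantile normalization and centring ended 6 and 7 of the 120 named calls and turned no sign among them. Without detection calls, changes of dim genes, such as Slc38a5, Akr1c1, Cacna1a, Adgrg2 or Gucy2c, could be understated.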
